A study of Mus musculus with 4 samples.

Results

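A pair of cohorts of reprogramming fibroblasts that shared the drug and the time in it, and differed in cell division, were compared for DNA methylation. The 1-division library came from cells that had divided once on average during 96 hours in doxycycline, and the 0-division library from cells that had divided 0 times on average over the same 96 hours. Both were secondary, inducible mouse embryonic fibroblasts (MEFs) of a 129/SvJ x C57/B6 hybrid, which carry doxycycline-inducible reprogramming factors. The members are 91711 clusters of neighbouring CpGs on the 19 autosomes, of 164497 clusters that the whole series lists on all chromosomes at any coverage. A CpG entered when it had at least 20 reads in both libraries, which left 951850 of 2057290 listed CpGs, and 716474 of them fell in clusters. A cluster joins at least 3 such CpGs that lie at most 100 bp apart, with its reads summed. The median cluster held 5 CpGs within 88 bp, with a median of 379 reads in the 0-division and 373 reads in the 1-division library.

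The series has 2 more libraries, which are shown beside the results and enter no test: uninduced control MEFs of the same strain and cells kept 96 hours in doxycycline that had divided more than 3 times on average, called the >3-division library. Each group is 1 library, so every difference below is a difference between 2 libraries and has no replicate check. The labels name a doxycycline medium (15% serum) and one for starvation (0.5% serum), and do not tie either to a cohort. Division number and serum therefore cannot be told apart here. No expression was measured, so the labelled cell type was not checked against marker genes.

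CpG methylation is a mark on cytosine that is copied when a cell divides: the newly made DNA strand starts without it, and the enzyme Dnmt1, guided by Uhrf1, adds it opposite the old strand. Where that copying lags, each division dilutes the mark, while a loss without division needs active removal, for which the Tet enzymes are known. CpG islands, which are CpG-dense and lie at many gene starts, are mostly free of the mark, and the CpG-poor rest of the genome mostly carries it. Reduced representation bisulfite sequencing (RRBS) reads short fragments cut by the enzyme MspI, so that CpG-rich sequence dominates. Bisulfite turns unmethylated cytosine into a base read as T, so that a cytosine that escapes conversion is counted as methylated.

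Gene names rest on promoter windows of RefSeq (GRCm38.p6), each running from 250 bases before a gene's start to 50 bases after it. They were placed on the mm9 positions of the files by the spacing of at least 10 consecutive CpGs. Of 13800 autosomal windows with enough CpGs, 7136 windows of 6372 genes were placed once, and 103 windows had a match on another autosome and were left out. The nearest placed start need not belong to the nearest gene, since windows with few CpGs could not be placed. Only 4 called clusters overlapped a placed promoter window. Of these, 3 windows are shown up to the start, since CpGs of their clusters lie in that stretch (mm9 positions, minus strand, written 5′ to 3′ with the cluster's CpGs in capitals). The fourth, at Npm3, differed at CpGs after the start and is described below by position.
Hic1, chr11:74981655-74981904: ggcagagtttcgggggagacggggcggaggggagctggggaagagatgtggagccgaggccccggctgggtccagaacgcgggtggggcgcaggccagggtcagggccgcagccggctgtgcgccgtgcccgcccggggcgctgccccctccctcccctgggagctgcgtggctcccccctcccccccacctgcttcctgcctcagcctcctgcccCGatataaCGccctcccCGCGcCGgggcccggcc
Zfp385c, chr11:100553781-100554030: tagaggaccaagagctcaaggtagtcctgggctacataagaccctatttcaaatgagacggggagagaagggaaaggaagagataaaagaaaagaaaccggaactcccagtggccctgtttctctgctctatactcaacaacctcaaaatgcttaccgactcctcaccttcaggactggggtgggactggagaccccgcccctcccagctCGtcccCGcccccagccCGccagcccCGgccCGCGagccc
4933414I15Rik, chr11:50757228-50757477: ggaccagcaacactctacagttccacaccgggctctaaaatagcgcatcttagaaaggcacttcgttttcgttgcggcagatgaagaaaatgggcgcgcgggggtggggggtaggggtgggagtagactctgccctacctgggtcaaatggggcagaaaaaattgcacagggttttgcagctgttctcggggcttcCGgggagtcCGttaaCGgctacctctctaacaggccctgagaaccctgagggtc
All 5 CpGs of the Hic1 cluster lie within these bases, packed next to the start, as do the 3 CpGs of the 4933414I15Rik cluster. Of the 10 CpGs of the Zfp385c cluster 6 lie before the start, and its 2 largest differences lie after it.

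Methylation differed little between the cohorts, and what differed had opposite signs at unmethylated and methylated sequence. The mean cluster level was 52.9% in 0-division and 53.1% in 1-division cells, against 52.9% in control and 48.6% in the >3-division library. The mean difference, 1-division minus 0-division, was 0.201 percentage points (95% interval from counting error 0.183 to 0.219), and the median was -0.14 points. Of all clusters 59.0% differed by less than 2 points and 97.6% by less than 10 points. Levels correlated with r = 0.996 across the 91711 clusters, which are not independent replicates. The sign of the overall mean rested on the weighting: with reads pooled over clusters the level was 34.6% in 0-division and 34.1% in 1-division cells, a difference of -0.48 points.

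CpG-dense clusters, with at least 12 other CpGs listed within 100 bp on either side, were lower in the 1-division than in the 0-division library. They averaged 7.09% in the 0-division, 6.59% in the 1-division, 6.58% in the control and 5.78% in the >3-division library. The 0-division value was thus the highest of the 4. The difference was -0.505 points (-0.518 to -0.491) over 19284 clusters, of which 76.6% were lower in the 1-division library. CpG-poor clusters, with at most 4 such neighbours, averaged 72.1% in the 0-division, 72.6% in the 1-division, 72.3% in the control and 65.8% in the >3-division library. Here the difference was 0.473 points (0.434 to 0.511) over 34795 clusters. Clusters of intermediate density stood at 58.5% and 58.8% in the 0- and 1-division libraries. Each of the 19 autosomes showed both signs: CpG-dense clusters differed by -0.665 to -0.379 points and CpG-poor clusters by 0.347 to 0.598 points.

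Sorting the clusters by their level in control, a library on neither side of the comparison, separated the signs more fully. Clusters under 10% in control averaged 2.21% in 0-division and 1.69% in 1-division cells, a difference of -0.52 points (-0.532 to -0.509) over 29210 clusters. From 10% to 30% the difference was -0.17 points (-0.264 to -0.0763). Above that the sign turned: it was 0.457 points (0.37 to 0.544) from 30% to 70%, 0.609 points (0.571 to 0.648) from 70% to 90% and 0.639 points (0.605 to 0.672) at or over 90%. In the last class the 0-division library averaged 92.2% and the 1-division library 92.9%. The turn did not depend on density: CpG-dense clusters at or over 90% in control differed by 0.644 points (0.422 to 0.865) and CpG-poor ones under 10% by -0.274 points (-0.35 to -0.198). Levels of the 0-division library thus lay inward of those of the 1-division library at both ends, as the plot of differences by starting level shows.

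**Figure D1:**
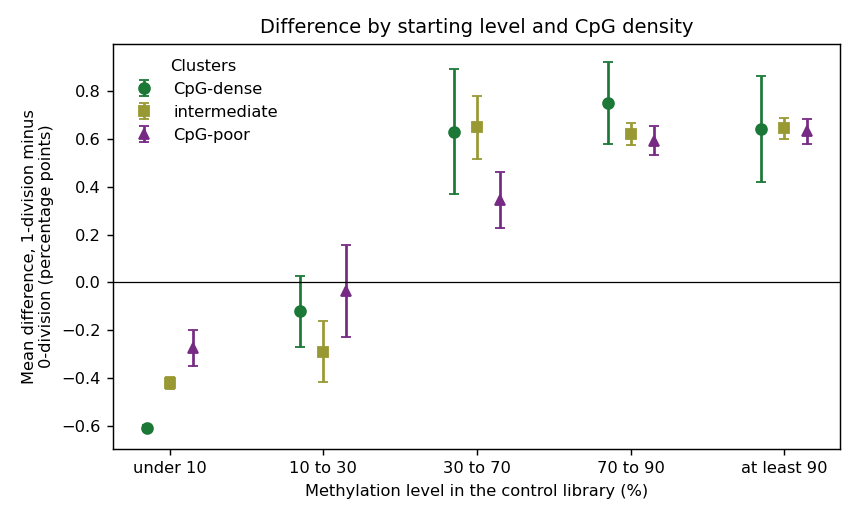
Mean difference in methylation level (1-division minus 0-division, percentage points, y axis) for clusters grouped by their level in the control library (x axis) and by CpG density (symbols); bars are 95% intervals from counting error. Means are below 0 for clusters under 10% in control, near -0.61 points in CpG-dense sequence, and above 0 in all 3 density classes from 30% upward.

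Single CpGs showed how the low end differed. Of 330548 CpG-dense CpGs, 42.9% had no methylated read in the 0-division library (median depth 62 reads) and 59.7% had none in the 1-division library (median depth 66 reads). With every CpG thinned to the lower of its 2 depths the shares were 44.7% and 62.0%, a gap as wide as before thinning. At CpG-poor CpGs the share with no unmethylated read was 2.7% in 0-division and 3.45% in 1-division cells at equal depth. Among the 17234 CpG-dense clusters under 10% in control, the whole distribution lay toward lower values: the quartiles of the difference were -1.004, -0.528 and -0.116 points, the 5th and 95th percentiles were -2.16 and 0.722 points, 97 clusters were lower by at least 5 points and 18 higher. The files hold CpG cytosines alone, so unconverted cytosines elsewhere could not be counted, and their part in the 0-division excess was not tested.

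The same shape appeared around gene starts. Within 500 bp upstream of the nearest placed start, 4476 clusters averaged 3.07% in 0-division and 2.53% in 1-division cells (difference -0.545 points, -0.574 to -0.516), and within 500 bp downstream 6083 clusters averaged 2.61% and 2.06%. From 1000 to 2000 bp and from 2000 to 5000 bp on either side the intervals of the difference included 0. Beyond 10000 bp the difference was 0.341 points upstream (0.308 to 0.375) and 0.34 points downstream (0.311 to 0.37), at levels over 60%. The highest of these means, 0.523 points (0.388 to 0.658), was that of 1824 clusters 5000 to 10000 bp downstream. At the same distance upstream the mean of 1326 clusters was 0.115 points, with an interval that included 0 (-0.0424 to 0.273).

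**Figure D2:**
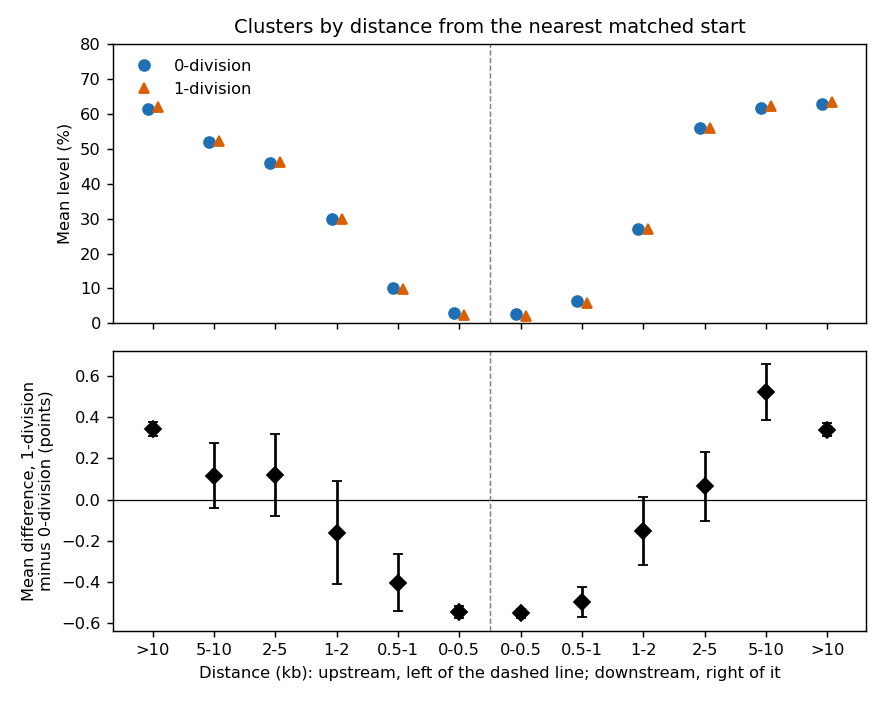
Top, mean level (%) of clusters in the 0- and 1-division libraries by distance (kb) from the nearest placed gene start; bottom, mean difference with 95% intervals from counting error. Both libraries share a trough at the start, and the difference is near -0.55 points within 0.5 kb, highest at 0.523 points from 5 to 10 kb downstream, and 0.34 points beyond 10 kb. From 5 to 10 kb upstream it is 0.115 points, with an interval that includes 0.

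Single clusters passed the test rarely. Calls required a Benjamini-Hochberg adjusted p under 0.05, from Fisher's exact test (two-sided) on the summed reads, and a difference of at least 10 points. In the 1-division library 226 clusters were lower, 0.246% of those tested, and 446 were higher, 0.486%. The minimum of 10 points set this balance: by adjusted p alone 3233 clusters were lower and 1089 higher, and 2569 of the lower ones were CpG-dense clusters, where the median size of a passing difference was 1.36 points. The called clusters nearest the limit differed by 10.0 points, and the nearest left out by 9.99 points. The files give no molecular identifiers, and neighbouring CpGs are read from the same molecules, so these p-values are too small. With read counts scaled down by the overdispersion of the pair of libraries, 2.45 for clusters, 10 clusters were lower and 14 higher.

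Calls differed in frequency by density and by read depth. CpG-poor clusters, 37.9% of those tested, held 124 lower calls (0.356% of the class) and 247 higher calls (0.71%). Intermediate clusters, 41.0% of those tested, held 86 (0.229%) and 182 (0.484%), close to the shares over all clusters. CpG-dense clusters, 21.0% of those tested, held 16 (0.083%) and 17 (0.0882%). By control level, clusters between 30% and 70% were called most often, 0.987% lower and 1.66% higher, against 0.0445% and 0.0137% of those under 10%. In 0-division cells clusters under 10% in control averaged 2.21% and CpG-dense clusters 7.09%. A cluster under 10% in the 0-division library cannot fall by 10 points, while a rise is not limited in this way. Why calls were rare in both directions in these 2 classes was not tested. Every CpG differed in the direction of its cluster in 161 of the 226 lower and 334 of the 446 higher clusters. The calls rest on the summed reads of these same CpGs, and close CpGs share reads, so agreement is favoured by the choice. The share among clusters not called is not given for comparison. The median size of a called difference was 13.3 points among the lower and 13.6 points among the higher clusters, and 17 and 54 clusters reached 20 points.

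The other 2 libraries place these levels. In the 226 lower clusters the mean level was 60.8% in 0-division and 46.6% in 1-division cells, with 52.8% in control and 44.5% in the >3-division library. In the 446 higher clusters it was 56.4% and 71.2%, with 64.8% in control and 50.7% in the >3-division library. Control stood between the 2 cohorts in 170 of the lower and 367 of the higher clusters. The clusters were chosen for a large difference between these cohorts, so another library is likely to lie between them by that choice alone. It was nearer to the 1-division level in 120 of the 226 lower clusters, 53.1% (Wilson interval 46.6% to 59.5%), and in 258 of the 446 higher ones, 57.8% (53.2% to 62.3%). These intervals treat clusters of the same libraries as independent, and that of the lower clusters includes an even split. The >3-division library was below both cohorts in 114 lower and 257 higher clusters. Its mean was also lower over all clusters, at 48.6% against 52.9% in 0-division and 53.1% in 1-division cells. The share of all clusters below both cohorts was not computed, so these counts do not set the called clusters apart. Levels in the 4 libraries are drawn in the plot of called clusters.

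**Figure D3:**
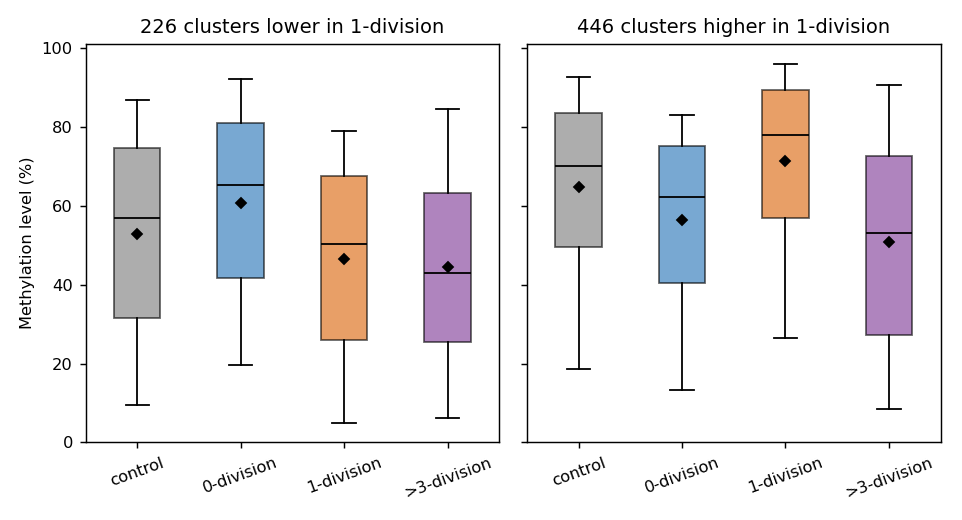
Methylation level (%) of the clusters called lower (left) and higher (right) in the 1-division library, in each of the 4 libraries; boxes span the quartiles with the median, whiskers the 5th to 95th percentile, and diamonds are means. Control means, 52.8% and 64.8%, lie between those of the 0- and 1-division libraries, which chose the clusters.

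Neighbouring CpGs differed alike over short stretches of DNA. Outside CpG-dense sequence the differences of paired CpGs correlated with r = 0.24 at 2 to 10 bp (144574 pairs), 0.162 at 11 to 25 bp and 0.0665 at 26 to 50 bp. At 51 to 100 bp r was 0.00852 and beyond 1000 bp, up to 5000 bp, it was 0.00773. Close pairs share reads, and pairs are not independent, so these values are descriptions. Called clusters were correspondingly scattered: 9 of the 226 lower clusters had another lower cluster within 10000 bp and 2 of the 446 higher clusters had another higher one. Of 2416 windows of 1 Mb with a tested cluster, 532 held a called one.

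One interval was the exception, and it was picked after the values were seen. On chromosome 8, 7 clusters called lower followed each other from 125951454 to 125957897, between the placed starts of Tubb3 (125935453), which encodes a beta tubulin of neurons, and Def8 (125967159). In RefSeq these genes are neighbours. The 7 clusters stood at 58.2% to 75.8% in the 0-division library, 43.2% to 63.2% in the 1-division library, 57.4% to 75.4% in control and 11.2% to 42.5% in the >3-division library. Control and 0-division cells were thus alike, 1-division cells lower and >3-division cells lowest. Summed, the level was 70.03% of 3544 reads in 0-division and 54.8% of 4450 reads in 1-division cells. It was 69.7% of 3980 reads in control cells and 31.4% of 9895 reads in >3-division cells. Read depth was thus highest in the library with the lowest level. Over all clusters the >3-division library had a median of 321 reads, against 379 reads in the 0-division library. The part of depth in this order was not tested.

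Of all 46 tested CpGs within the span, whose ends the called clusters set, 42 were lower in the 1-division library. The cluster from 125951811 to 125952090 went from 71.5% of 778 reads to 52.3% of 941 reads, a difference of -19.2 points (-23.6 to -14.6, adjusted p = 1.49e-12, Fisher's exact test). The cluster from 125953180 to 125953302 went from 68.6% to 48.2%. One of the 8 clusters tested within the span did not follow, with 48.9% of 88 reads in 0-division and 53.6% of 166 reads in 1-division cells. Beside the span, the cluster at 125949807 stood at 83.2% and 82.2% and the one at 125958012 at 84.3% and 82.9%, so neither differed by more than 2 points. A cluster of 3 CpGs at 125949957, at 53.3% of 120 reads and 47.7% of 153 reads, did not pass the test (adjusted p = 0.779, Fisher's exact test). With counts divided by the overdispersion, 1 of the 7 clusters, that at 125951811, was still called. The difference of the cluster at 125957786 was -12.1 points with summed reads and -3.19 points with equal weight per CpG.

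**Figure D4:**
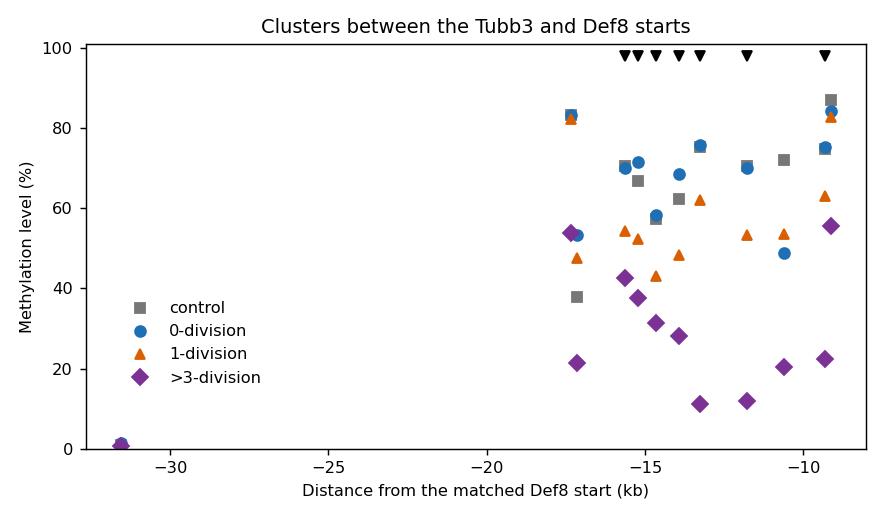
Methylation level (%) of the 12 tested clusters between the placed starts of Tubb3 and Def8, by distance (kb) from the Def8 start, in the 4 libraries; triangles at the top mark the 7 clusters called lower. Control and 0-division points overlap over most of the span, 1-division points lie below them and >3-division points lowest.

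The named clusters are the 10 largest falls and the 10 largest rises among clusters whose CpGs all agreed in direction, with the deepest called cluster each way and the largest of each density class. They came to 23 clusters, of which 8 were still called with counts divided by the overdispersion. The largest fall was on chromosome 8 from 95201287 to 95201300, 5 CpGs within 14 bp. It stood at 74.3% of 300 reads in the 0-division library, 42.3% of 196 reads in the 1-division library, 46.3% in control cells and 2.5% of 120 reads in >3-division cells. The 0-division library was high there and the others were not, and the fall of -32.0 points (-40.1 to -23.2) had an adjusted p of 3.03e-09 (Fisher's exact test). Its 5 CpGs ran from 71.7% to 78.3% in the 0-division and from 35.9% to 47.4% in the 1-division library.

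A further pair of falls kept their call under every alternative that could be computed. On chromosome 13 from 56663633 to 56663665 the level was 56.9% of 392 reads in 0-division and 30.7% of 596 reads in 1-division cells, with 21.7% of 1069 reads in control and 27.6% in the >3-division library. Only the 0-division library departed from the rest at this cluster. On chromosome 15 from 101309796 to 101309829 it was 52.0% of 396 reads and 25.8% of 426 reads, with 40.1% in control and 24.6% in the >3-division library. Control lay between the cohorts, and the 1- and >3-division libraries were alike. The difference was -26.2 points at both clusters (adjusted p = 1.11e-12 and 3.27e-11, Fisher's exact test). On chromosome 10 from 66840644 the fall was from 57.9% of 159 reads to 27.9% of 154 reads, with 45.3% in control and 21.8% in >3-division cells, and it was not called with counts divided by the overdispersion.

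The remaining large falls, and that at Hic1 described below, lost their call when counts were divided by the overdispersion. They were on chromosome 12 from 21839660 (52.5% of 80 reads to 25.5% of 94 reads), chromosome 18 from 26293950 (77.8% to 51.6%), chromosome 12 from 84411991 (44.9% to 20.2%), chromosome 17 from 47660191 (73.8% to 52.3%) and chromosome 2 from 83824107 (85.0% to 63.6%). Control lay between the cohorts at 4 of these 5 and at 52.2%, level with the 1-division library, on chromosome 17. With gaps of 200 bp, which join such clusters to their neighbours, the differences on chromosomes 12, 18 and 17 were -0.946, -4.08, -2.28 and -5.8 points in the order given, and 0 of these 4 passed.

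The largest rise was on chromosome 2 from 168487389 to 168487420, 4 CpGs. It went from 42.2% of 147 reads in the 0-division to 80.3% of 142 reads in the 1-division library, with 75.4% of 65 reads in control cells and 48.7% of 39 reads in >3-division cells. Control and 1-division cells were high, the others low. The rise of 38.1 points (27.2 to 47.7, adjusted p = 3.06e-08, Fisher's exact test) was kept under every alternative that could be computed. A cluster on chromosome 6 from 3151554 was at 35.3% of 1210 reads in 0-division and 67.3% of 324 reads in 1-division cells, with 73.8% of 397 reads in control and 28.1% in the >3-division library. Its read depth differed between libraries without following the level. The 0-division library, at 35.3%, had the most reads of the 4, and the >3-division library, at 28.1%, the fewest, 171 reads. The part of depth in the result was not tested.

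A rise on chromosome 14 from 19102834, 653 bp downstream of the placed start of Rpl15, which encodes a protein of the large ribosomal subunit, went from 27.7% to 61.0% (33.3 points, 18.7 to 46.1). Control stood at 60.6% of 66 reads and the >3-division library at 1.961% of 51 reads. On chromosome 7, clusters from 132571284 and 25003490 rose from 36.8% to 65.8% and from 43.8% to 72.7%. On chromosome 13, 3 clusters rose: from 38.3% to 65.1% at 31721657, 3984 bp downstream of the start of Foxf2, a forkhead factor of mesenchyme, from 49.0% to 75% at 96323997 and from 20.2% to 45.2% at 94579813. The last rises were on chromosome 2 from 174122853 (30.8% to 56.0%) and chromosome 17 from 50804464 (64.3% to 89.1%, with 89.4% in control). In all 10 of these rises, which were chosen by the 0- and 1-division levels, the control level was above the 0-division level. All but those on chromosome 2 at 168487389 and chromosome 6 lost their call with counts divided by the overdispersion, and with gaps of 200 bp the Rpl15, Foxf2 and chromosome 6 clusters differed by -2.04, 4.24 and -0.768 points. Admitting CpGs from 10 reads upward, the chromosome 6 cluster differed by -0.76 points.

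Among CpG-dense clusters, the largest rise was on chromosome 5 from 42153396, 2048 bp downstream of the placed start of Nkx3-2, a homeobox factor of skeletal development. It went from 12.4% of 820 reads in the 0-division to 26.8% of 872 reads in the 1-division library, with 13.7% in control and 11.6% in the >3-division library. Here the 1-division library alone was high (14.4 points, 10.7 to 18.1, adjusted p = 1.67e-10, Fisher's exact test). Joined to its neighbours at gaps of 200 bp, it differed by 2.07 points and did not pass. All named clusters are drawn in the plot of named clusters.

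**Figure D5:**
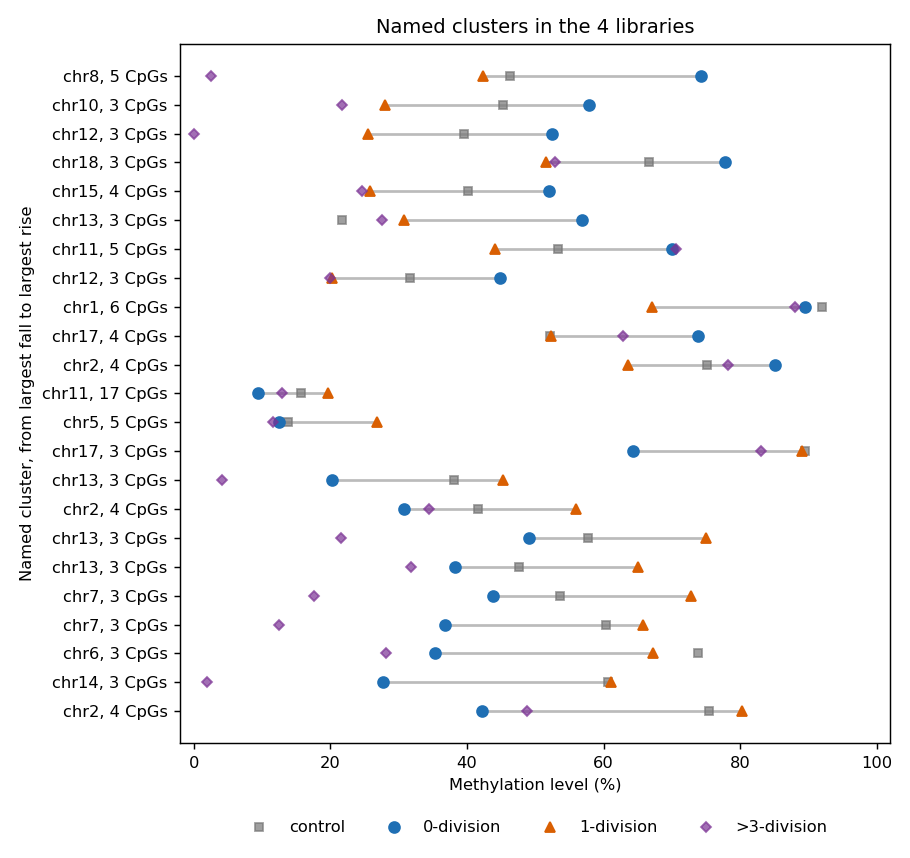
Methylation level (%) of the 23 named clusters in the 4 libraries, ordered from the largest fall to the largest rise in the 1-division library; grey lines join the 0- and 1-division levels. Control squares lie between those 2 levels, which chose the clusters, in most rows, and >3-division diamonds lie farthest left in many.

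The deepest called clusters were set by part of their CpGs. On chromosome 1 from 22881179 to 22881364 the level was 89.4% of 2677 reads in 0-division and 67.1% of 5528 reads in 1-division cells. A single CpG, at 22881352, carried the fall: it stood at 89.4% of 1157 reads and 40.9% of 2599 reads. The next CpG, 12 bp away at 22881364 and read to nearly the same depth, stood at 91.3% and 91.5%. With equal weight per CpG the cluster's difference was -9.00 points in place of -22.4 points, and without CpGs above the 99th percentile of coverage, or with gaps of 50 bp, it was -2.77 points and did not pass (adjusted p = 0.765 and 0.771, Fisher's exact test). On chromosome 11 from 116359995 the level was 9.42% of 4661 reads in 0-division and 19.6% of 2144 reads in 1-division cells, and with equal weight per CpG the difference was 0.137 in place of 10.2 points. It was below 0, at -3.79 points, without CpGs above the 99th percentile of coverage.

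Gene starts held few called clusters: 24 lay within 2000 bp of a placed start, 3.71% of those on chromosomes with placed starts, against 16.2% of all clusters tested there. At Hic1, a zinc finger repressor whose promoter is often methylated in tumours, the cluster from 74981665 to 74981687 stood at 70% of 110 reads in 0-division and 44.0% of 168 reads in 1-division cells. Control was at 53.3% of 199 reads and the >3-division library at 70.7% of 150 reads, so the order did not follow the number of divisions. All 5 CpGs shown in capitals above were lower in the 1-division library, by -10.8 to -36.1 points (cluster -26.0 points, -36.6 to -14.1, adjusted p = 0.0022, Fisher's exact test). The naming rule required this agreement, and the 5 CpGs lie within 23 bp and share reads, so they are not separate evidence. The call did not hold with counts divided by the overdispersion (adjusted p = 0.68, Fisher's exact test), and with gaps of 200 bp the cluster joined its neighbours and the difference was 1.35 points.

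At Npm3, which encodes a nucleoplasmin-family histone chaperone, a 15-CpG cluster from 45823929 to 45824243 on chromosome 19 stood at 12.9% of 708 reads in the 0-division, 1.15% of 780 reads in the 1-division, 4.36% in the control and 10.4% in the >3-division library. The fall lay in the 2 CpGs farthest downstream of the start. The CpG at 45823929 stood at 55.4% of 74 reads in the 0-division, 1.85% of 54 reads in the 1-division, 17.9% in the control and 51.4% in the >3-division library, and that at 45823954 at 52.7%, 3.64%, 23.2% and 54.5% in the same order. Both were high in the 0- and >3-division libraries and low in the 1-division library. The other 13 CpGs were at most at 15.4% in any of the 4 libraries. The cluster was still called with counts divided by the overdispersion (adjusted p = 2.37e-05, Fisher's exact test). With equal weight per CpG its difference was -7.85 in place of -11.7 points, short of the minimum of 10 points.

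The Zfp385c cluster rose from 14.7% of 468 reads to 25.9% of 567 reads, with 21.4% in control and 18.4% in >3-division cells (adjusted p = 0.0012, Fisher's exact test). That at 4933414I15Rik rose from 61.1% of 375 reads to 73.4% of 376 reads, with 68.8% in control and 46.1% in the >3-division library. In both, control lay between the cohorts. With equal weight per CpG the Zfp385c difference was 9.64 points, under the minimum of 10 points. The next 3 clusters, near but not in a promoter window, were chosen after their values were seen. One upstream of a start of Runx1 (at -1659 bp), a transcription factor of blood formation, stood at 28.8% of 212 reads in 0-division and 14.2% of 183 reads in 1-division cells, with 10.9% in control and 12.6% in the >3-division library. One 997 bp downstream of the start of Hoxd10, a homeobox gene of limb patterning, stood at 24.2% of 190 reads and 38.4% of 276 reads, with 28.7% and 13.7% in the other libraries. One 1290 bp downstream of the start of the kinase gene Dyrk1b went from 24.5% of 552 reads to 53.1% of 194 reads. Control stood there at 50% of 174 reads and the >3-division library at 9.94% of 171 reads. The 0-division library thus had the most reads, and the part of depth was not tested. The Dyrk1b difference was 28.6 points with summed reads and 12.1 points with equal weight per CpG. With counts divided by the overdispersion the Dyrk1b cluster was still called, and 0 of those at Zfp385c, 4933414I15Rik, Runx1 and Hoxd10 were.

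Tested as wholes, promoters repeated the low-end difference and little else. Of 6634 placed promoter windows of 6057 genes with at least 3 covered CpGs, 93.3% were under 5% in both cohorts. They averaged 2.53% in the 0-division, 1.88% in the 1-division, 1.92% in the control and 1.497% in the >3-division library. By the cluster rule 3 promoters were lower, 0.0452%, and 2 were higher, 0.0301%. Relative to the odds ratio over all promoters, 0.646, 1 was lower and 41 higher, and with counts divided by their overdispersion of 4.93 none was called in either direction. By adjusted p alone 1172 were lower, 17.7%, and 31 higher, 0.467%. The 3 lower ones were Gm30604 (17.0% of 200 reads to 1.67% of 240 reads), Gm38675 (36.2% to 21.5%) and Myo1h, an unconventional myosin (66.5% of 662 reads to 54.6% of 687 reads). The higher ones were Gm33434 (63.7% to 73.9%) and Zfp385c.

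Of the 8 genes of the methylation machinery, 5 were placed, in 7 windows. At Dnmt3a, a de novo methyltransferase, 1 window stood at 4.99% of 981 reads in 0-division and 0.686% of 1021 reads in 1-division cells, with 0.767% in control and 0.922% in the >3-division library. The 0-division library alone was raised there (-4.31 points, -5.9 to -2.91, adjusted p = 9.88e-07, Fisher's exact test over promoters), and an overlapping Dnmt3a window differed by -3.26 points, while a separate one differed by -1.20 points and did not pass. The maintenance enzyme Dnmt1 was at 1.43% and 0.329% (adjusted p = 0.0157, Fisher's exact test), and Dnmt3b, the other de novo enzyme, at 2.37% of 337 reads and 0 of 360 reads, which allows up to 1.06% (Wilson; adjusted p = 0.0233, Fisher's exact test). Uhrf1 was at 1.13% and 0.28% (adjusted p = 0.0516, Fisher's exact test) and Tet3 at 0.733% and 0.656%. Of the 7 windows, 4 were lower by adjusted p and 0 by the cluster rule. Over all promoters 17.7% were lower by adjusted p, and 2 of the 4 are the Dnmt3a windows that share CpGs. The median difference of these windows was -1.2 points, against -0.539 points over all promoters. Adjusted p-values of promoters, here and in the next paragraph, test against no difference, not against the odds ratio over all promoters, 0.646. Nor were their counts divided by the overdispersion of 4.93, and whether single windows pass on either basis is not given.

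Other lists were covered thinly, with 0 promoters called in any. Of 10 imprinted genes 4 were placed. Plagl1, whose maternal allele is methylated, stood at 42.4% of 1188 reads and 39.9% of 967 reads, with 42.8% in control. Igf2r was at 28.5% of 1312 reads and 32.0% of 1120 reads, with 35.8% in control. Neither difference passed (adjusted p = 0.46 and 0.196, Fisher's exact test), with intervals of -6.66 to 1.67 and -0.198 to 7.12 points. A Gnas window was at 4.08% and 1.03% (adjusted p = 0.0033, Fisher's exact test), and Grb10 at 1.78% and 1.31%. Of 8 cell cycle genes 2 were placed: Ccne1, a G1/S cyclin, at 1.29% of 1780 reads and 0.366% of 1639 reads (adjusted p = 0.0295, Fisher's exact test), and Cdkn2a, the senescence-linked inhibitor gene, at 1.19% and 1.10%. Of 12 pluripotency genes Sox2 was placed (2.26% and 2.56%), of 12 fibroblast genes Snai1 (0.609% and 0.499%) and of 9 epithelial and early reprogramming genes Ocln (3.03% and 3.33% in 1 window, 4.38% and 2.59% in another). None of these last 3 passed.

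Single CpGs were called at the same adjusted p and a difference of 20 points or more. Of 951850 tested, 67 were lower in the 1-division library, 0.00704%, and 144 were higher, 0.0151%. The higher CpGs averaged 37.1% in 0-division and 72.5% in 1-division cells, with 59.2% in control and 37.3% in the >3-division library. The lower ones averaged 66.7% and 35.6%, with 50.3% and 46.3%. Control means again lay between the cohorts, which chose these CpGs. Of the lower CpGs 25 and of the higher 55 lay outside any cluster. The largest rise was at chromosome 3, 117835582, from 9.52% of 126 reads to 73.8% of 42 reads, with 72.9% of 59 reads in control cells and 20.6% of 34 reads in >3-division cells. The largest fall was at chromosome 11, 99135716, from 86.7% of 45 reads to 32.0% of 25 reads, with 61.3% in control and 75.6% in the >3-division library. With counts divided by the overdispersion of 1.4 for CpGs, 10 were lower and 45 higher.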

How the data were processed

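RRBS libraries were made from 40 to 220 bp MspI fragments, per the labels' protocols, and mapped to mm9, per the submitters' processing notes. The authors deposited 2 read counts per CpG, methylated then unmethylated, without normalization; the order was settled from the values. For the aligner, methylation caller, handling of duplicates and conversion check, names and settings were not given in the sources used here. Positions were read as counting from 0 and are printed counting from 1: at the unchanged beginnings of 7 chromosomes all 164 placed promoters lay 1 below their GRCm38 position. Neighbouring placed promoters were equally far apart in both builds in 97.1% of 7118 pairs. Total reads over CpGs were 86782772 (0-division) and 84954702 (1-division). Levels, Fisher's exact tests, Wilson and Newcombe 95% intervals, which cover counting error only, were computed in Python 3.11.15 (numpy 2.4.6, numba 0.67.0). The test was checked on simulated data with independently drawn reads. That check held no overdispersion, so it cannot show how the p-values behave in these libraries. Benjamini-Hochberg adjustment ran over all clusters, CpGs or promoters tested. Named clusters are the 10 largest called differences each way with all CpGs agreeing, the deepest call each way and the largest call each way in each density class. The members, lists and the naming rule were chosen with earlier results of these data known; promoter placement, and the use of the gene lists with it, were added after the files were seen.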

Additional observations from a re-analysis of the deposited data

How the results depend on the processing

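The signs at the ends of the methylation range held under every alternative computed: CpG-dense clusters differed by -0.581 to -0.462 points and CpG-poor ones by 0.354 to 0.623 points. The overall mean of 0.201 points did not hold: it was -0.481 points with reads pooled over clusters, 0.016 points with at least 5 CpGs per cluster, 0.122 points with gaps of 50 bp, 0.26 points with gaps of 200 bp, 0.3001 points with a minimum of 10 reads, 0.122 points with 30 reads and 0.255 points with equal weight per CpG. The difference between CpG-poor and CpG-dense means, 0.977 points, was 0.935, 1.14, 1.07, 0.927, 1.13, 0.866 and 1.15 points in the same order. That between clusters at or over 90% and under 10% in control, 1.16 points, was 1.00 points with pooled reads, 1.29 points with 5 CpGs, 1.24 points with gaps of 50 bp, 1.30 and 1.07 points with minimums of 10 and 30 reads and 1.30 points with equal weight.

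Counts of calls moved more. Division by the overdispersion, which counts any real difference between these libraries as noise, left 10 lower and 14 higher clusters, 10 lower and 45 higher CpGs, and 0 promoters either way. At equal depth there were 149 lower and 287 higher clusters, 35 lower and 82 higher CpGs, and 0 higher promoters. With at least 5 CpGs there were 81 lower and 167 higher clusters. A minimum of 5 points (10 for CpGs) gave 542 and 906 clusters and 32 and 13 promoters; one of 20 points (30 for CpGs) gave 17 and 54 clusters, 30 and 92 CpGs and 0 promoters. A minimum of 10 reads gave 11 lower and 4 higher promoters, centring on the odds ratio 1 and 41 promoters, and leaving out the deepest CpGs 44 lower CpGs. The share of called clusters with control nearer to the 1-division level, 56.3%, was 61.7% with 5 CpGs, 51.1% with gaps of 200 bp and 70.8% of 24 clusters under overdispersion. The cause of these shifts was not tested, beyond the fewer features or reads that some alternatives leave.

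Of 23 named clusters 19 kept their direction throughout. A minimum of 10 reads or gaps of 200 bp joins neighbours: Hic1 then differed by 1.34 and 1.35 points and the chromosome 6 cluster at 3151554 by -0.76 and -0.768 points, and with gaps of 200 bp the chromosome 14 cluster at 19102834 by -2.04 points. The chromosome 11 cluster at 116359995 differed by -2.81 points with gaps of 50 bp and by -3.79 points without the deepest CpGs. No paired analysis was possible because each group has 1 library.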
